A study of Mus musculus with 14 samples.

Results

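The miR-15/16 family was taken as 8 mature miRNAs chosen by name from the 1966 mouse miRNAs of the deposited table. They were mmu-miR-15a-5p, mmu-miR-15b-5p, mmu-miR-16-5p, mmu-miR-195a-5p, mmu-miR-497a-5p and mmu-miR-322-5p, together with the 3p arms mmu-miR-15b-3p and mmu-miR-16-1-3p, and are written below without the prefix for mouse. All 8 names were found. The table comes from small RNA of primary cortical neurons of C57BL/6 mice, prepared at embryonic day 17.5, and of the media these neurons had conditioned. Cells received 1 µM staurosporine, a kinase inhibitor used to induce apoptosis, or the solvent DMSO alone for 8 h, and the labels give 4 media DMSO, 4 media staurosporine, 3 neurons DMSO and 3 neurons staurosporine samples. The table has 14 count columns headed by codes of libraries, which no label used here ties to a sample, and no count entered any step. What follows describes the sequences, genomic positions and seed matches of the members. It holds no expression level, depth, replicate error or test, and nothing here says how much of a member was present in neurons or media.

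miRNAs guide Argonaute proteins to mRNAs through their seed, the stretch from base 2 to base 8 of the mature sequence, and miRNAs with the same seed can bind the same sites. miR-15a and miR-16-1 are known from chronic lymphocytic leukaemia, where their locus is often deleted, and from their repression of BCL2, an inhibitor of apoptosis. The family is also known to lower cyclins and other proteins that drive the cell cycle.

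The mature sequences below are those of RefSeq on GRCm38.p6, printed 5′ to 3′ with the seed in capitals. They are shown because the seed and the bases after it decide which members can be told apart.
miR-15a-5p: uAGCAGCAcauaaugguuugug
miR-15b-5p: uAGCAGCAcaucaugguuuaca
miR-16-5p: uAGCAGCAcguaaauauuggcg
miR-195a-5p: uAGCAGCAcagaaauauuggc
miR-497a-5p: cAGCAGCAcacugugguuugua
miR-322-5p: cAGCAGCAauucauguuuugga
miR-15b-3p: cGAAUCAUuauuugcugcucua
miR-16-1-3p: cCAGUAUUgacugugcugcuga

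The 6 members that are 5p arms had the same seed, AGCAGCA, and the 2 members that are 3p arms had neither this seed nor a common one. The seed GAAUCAU of miR-15b-3p and the seed CAGUAUU of miR-16-1-3p each belonged to 1 name only among the 1625 names of the table whose sequence could be read. Both 3p arms carry the reverse complement of the family seed, UGCUGCU, away from their own seed. It occupies bases 13 to 19 of miR-15b-3p and bases 14 to 20 of miR-16-1-3p, positions being counted from 1 at the 5′ end. The same 7 bases occupy bases 14 to 20 of miR-195a-3p and of miR-16-2-3p. miR-15a-3p shared at most 6 bases in a row with UGCUGCU, miR-322-3p 5 and miR-497a-3p 3.

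Over the 22 positions of the 6 members that are 5p arms, 9 held the same base in every member that reaches them. These were the 7 bases of the seed and, outside it, bases 17 and 18, which are U in each of the 6 sequences printed above. The members differed most at bases 12, 16 and 21, where the most common base was held by 3 of 6, and at base 22, where it was held by 3 of the 5 members that reach it. miR-195a-5p, with 21 bases, ends before it.

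**Figure D1:**
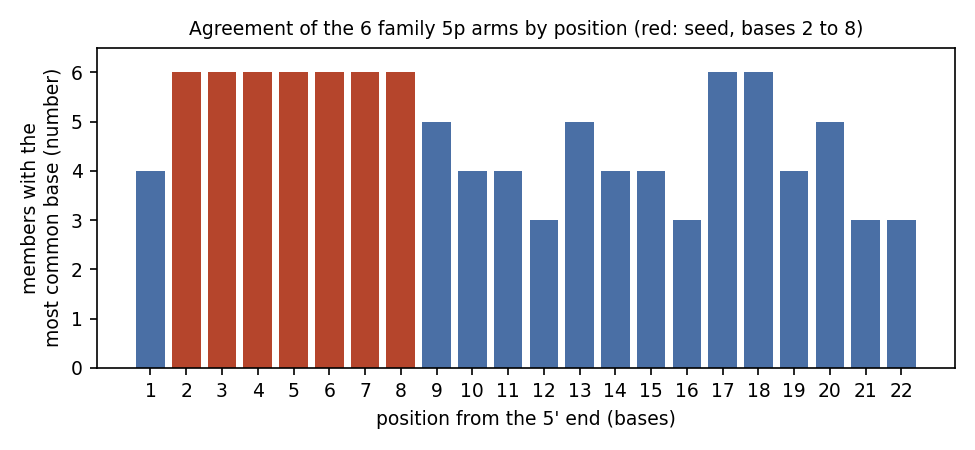
For each position from the 5′ end (x axis, bases), the bar gives how many of the 6 members that are 5p arms hold the most common base there (y axis, number); the seed is in red. All 6 agree at bases 2 to 8 and again at bases 17 and 18, and base 22 exists in 5 members only.

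Beyond the seed some 5p arms were closer to each other than the rest. The 15 comparisons between 2 of them gave 2 to 11 differing bases with a median of 7, counted with the 5′ ends aligned. miR-16-5p and miR-195a-5p were the closest, with 2 differing bases over the 21 compared, G10A and U11G from the first to the second. miR-15a-5p and miR-15b-5p differed by 4, A12C, G20A, U21C and G22A. miR-497a-5p was nearest to miR-15a-5p, with 5 differing bases that include the first, U1C, when read from miR-15a-5p. Compared with miR-15a-5p, both miR-16-5p and miR-195a-5p carried U14A, G15U, G16A, U19G and U21C, so these share most of what follows the seed. miR-322-5p, the mouse counterpart of human miR-424, had 6 differing bases from its nearest member, miR-15b-5p, and 10 from miR-16-5p. The pair with the most differing bases was miR-16-5p and miR-497a-5p, with 11. None of the differing bases between 5p members lay in the seed, since members were alike there.

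**Figure D2:**
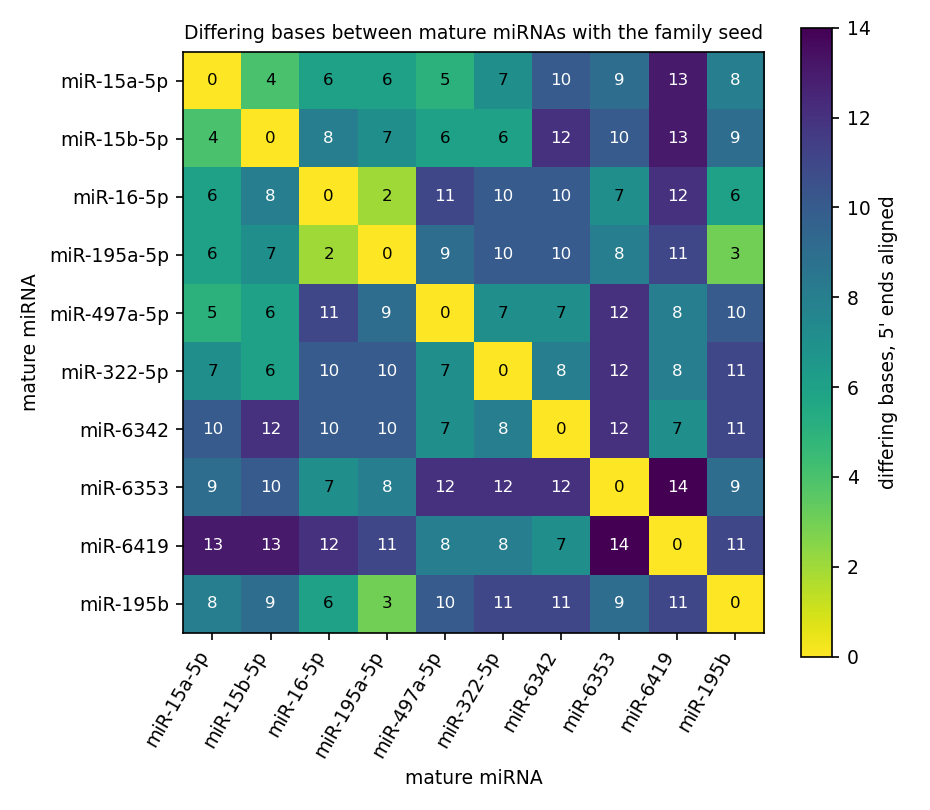
Each cell gives the number of differing bases between the mature miRNAs of its row and column, with 5′ ends aligned and end bases without a partner left out; the 6 members come first and the 4 other names with the family seed last. miR-16-5p and miR-195a-5p differ by 2 and miR-195b and miR-195a-5p by 3, whereas miR-6419 differs by 8 to 13 from the members.

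The seed AGCAGCA was found in 10 of the 1625 mature miRNAs whose sequence could be read (0.615%). Apart from the 6 members these were miR-195b, miR-6342, miR-6353 and miR-6419. They are shown for the length of 5′ sequence they share with a member.
miR-195b: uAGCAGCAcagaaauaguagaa
miR-6342: cAGCAGCAaucuggucuuugag
miR-6353: uAGCAGCAcguauuuauccuauu
miR-6419: cAGCAGCAaucugacacaugga
miR-195b has the first 16 bases of miR-195a-5p, and the 2 differ by U17G, G19A and C21A when read from miR-195a-5p. A read has to reach base 17 to tell them apart. miR-6353 has the first 12 bases of miR-16-5p, and miR-6342 and miR-6419 the first 10 of miR-322-5p. miR-15a-5p and miR-15b-5p have 11 bases in common, so that base 12 separates them. For miR-497a-5p the shared stretch was shorter than for the other 5p members, at 8 bases. The 3p members were distinct from base 7 on in miR-15b-3p and from base 6 on in miR-16-1-3p. No other name held the first 18 bases of a member. When the seed was read as bases 2 to 7, 11 names had it, and the added one was miR-503-5p, whose seed is AGCAGCG.

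The 8 members are encoded at 9 loci in 4 places of the genome build GRCm38, which the header of the table names. On chromosome 14, miR-15a-5p (chr14:61632075-61632096), miR-16-5p (chr14:61631936-61631957) and miR-16-1-3p (chr14:61631894-61631915) lie on the minus strand within 203 bases, in an intron of Dleu2, a long non-coding RNA gene of the same strand. On chromosome 3, miR-15b-5p (chr3:69009775-69009796), miR-15b-3p (chr3:69009813-69009834) and the other locus of miR-16-5p (chr3:69009918-69009939) lie on the plus strand within 165 bases, in an intron of Smc4. This gene encodes a subunit of condensin, the complex that compacts chromosomes in dividing cells. These 2 places have the same order, a miR-15 hairpin followed by a miR-16 hairpin, with miR-16-5p starting 139 bases after miR-15a-5p and 143 bases after miR-15b-5p.

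miR-497a-5p (chr11:70234730-70234751) and miR-195a-5p (chr11:70235062-70235082) lie on the plus strand of chromosome 11, with 332 bases between their starts, and no gene of GENCODE M21 other than miRNA genes spans them. miR-322-5p (chrX:53054306-53054327) lies on the minus strand of chromosome X, likewise outside other genes. It is the only member there. Within 10 kb the table lists 14 mature loci, all on the minus strand, and miR-322-5p is the first of them in the direction of transcription. miR-503-5p, the name that shares 6 seed bases with the family, starts 278 bases after it, followed by miR-351, miR-542 and the miR-450 hairpins up to 6298 bases away. None of the other 4 names with the family seed lies beside a member. miR-195b is on chromosome 2 (chr2:56785825-56785846) and miR-6342 on chromosome 1 (chr1:29421552-29421573), outside other genes. miR-6353 (chr1:84218926-84218948) is in an intron of Pid1, and miR-6419 (chr2:17563541-17563562) lies over an intron of Nebl, which is on the opposite strand.

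**Figure D3:**
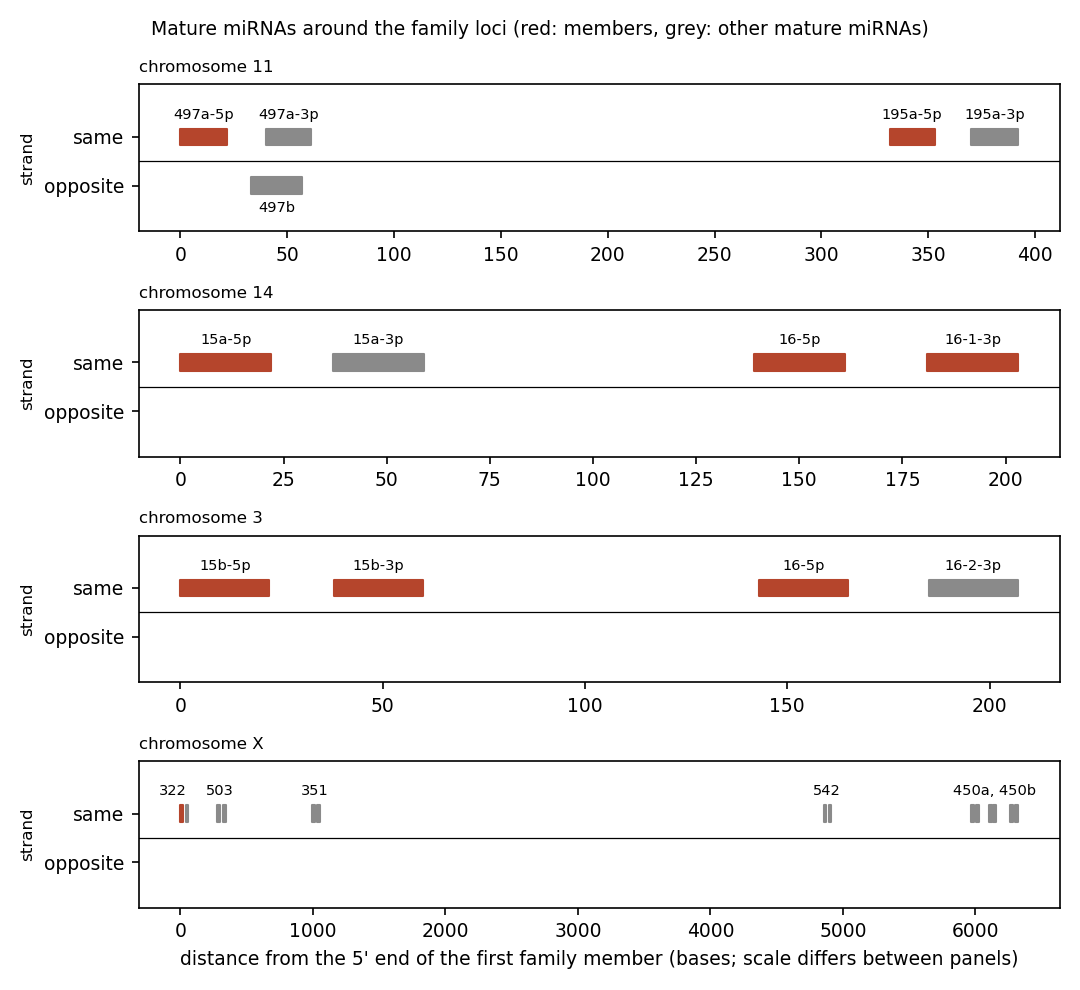
Mature miRNAs listed within 10 kb of the members, drawn to scale by distance from the 5′ end of the first member of each place (x axis, bases, with a different scale in each panel) and by strand (y axis); members are in red and other mature miRNAs in grey. The miR-15 and miR-16 hairpins have the same order on chromosomes 14 and 3, and miR-497b is the only listed miRNA on the opposite strand.

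Of the 8 members, miR-16-5p alone had more than 1 locus, against 82 of the 1966 names (4.17%). The mature sequences of its 2 loci are identical, and the hairpins agree over a run of 23 bases, which holds the 22 mature bases, 0 bases before them and 1 base after them. A read of mature miR-16-5p thus fits Mir16-1 and Mir16-2 equally, whereas a read that starts before the mature 5′ end or runs at least 2 bases past its 3′ end does not. The call of featureCounts recorded with the table lacks the option for multi-mapping reads, and by default these are left out. Counts of miR-16-5p can then come only from reads that the aligner placed at 1 of the 2 loci. How many reads were lost in this way was not analysed here. The minimum read length given in the study's trimming command is longer than the 21 or 22 bases of each member and than the shared run of 23 bases. Reads kept under it would be longer than the mature sequence, and whether their further bases come from the hairpin was not analysed here. If aligned over its whole length, such a read would not fit both loci of miR-16-5p equally. The effect of the minimum length on the counts was not analysed here. The 3p arms differ between the loci, so miR-16-1-3p comes from chromosome 14 and miR-16-2-3p from chromosome 3. The other 7 members were each found in 1 miRNA gene of GENCODE M21 and, as an exact stretch, in 0 transcripts of other genes. Other parts of the genome were not searched.

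miR-497a-5p is the one member with an antisense partner hairpin. miR-497b (chr11:70234763-70234786, minus strand) comes from the strand opposite to miR-497a, and the transcript of Mir497b holds the reverse complement of miR-497a-5p. The mature arms do not overlap, since miR-497b lies 11 bases beyond the end of miR-497a-5p and shares 17 bases with miR-497a-3p instead. None of the members overlapped a mature miRNA on the opposite strand (0 of 8). The share over all names was not counted, so this 0 cannot be read as a trait of the family. No strand option was set in counting, and by default a read from either strand at the position of a member would be counted for it.

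The study was concerned with G, U and A content because GU-rich and AU-rich single-stranded RNA activates TLR7 and TLR8, endosomal receptors of innate immunity. GU content, the summed share of G and U in the mature sequence, was 42.9% to 59.1% in the 8 members with a median of 54.5%. Over the 1625 mature miRNAs the median was 54.5% too, with an interquartile range of 45.5% to 63.6%. miR-15a-5p and miR-16-1-3p had the highest value among members, 59.1%, and 61.8% of all names lay below them. miR-195a-5p had the lowest, with 5 G and 4 U in 21 bases, and 18.2% of all names lay below it. miR-15a-5p and miR-15b-5p differed in GU content, 59.1% against 45.5%, since 3 of the 4 substitutions between them replace a G or U. AU content was 50.0% to 63.6% in the members with a median of 58.1%. Over all names the median was 47.8% and the interquartile range 40.0% to 55.0%. 5 of the 8 members lay above this interquartile range. The lowest of these 5 was miR-195a-5p with 57.1%, and 77.4% of all names lay below it. miR-15b-3p was the highest with 63.6%, above 89.5% of all names, and miR-16-1-3p and miR-497a-5p the lowest with 50.0%. The 6 members that are 5p arms share their seed, and the 2 that are 3p arms lie beside them in the same hairpins, so these values are not independent of each other.

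**Figure D4:**
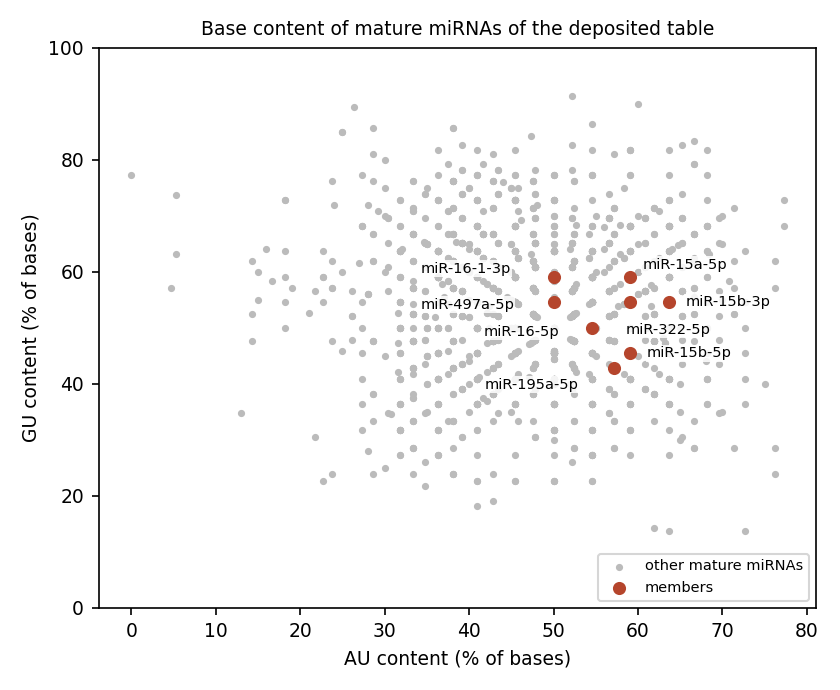
AU content (x axis) against GU content (y axis), both in percent of bases, for 1625 mature miRNAs, with the 8 members in red. The members lie between 42.9% and 59.1% on the GU axis and between 50.0% and 63.6% on the AU axis, and U enters both contents.

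The study links short motifs to the human receptors TLR8 or TLR7/8, and 7 of them were searched first. At least 1 of these was found in 3 of the 8 members and in 584 of 1625 names (35.9%). UUGU occupies bases 18 to 21 of both miR-15a-5p and miR-497a-5p, and UUAU bases 8 to 11 of miR-15b-3p. UUGU was present in 9.72% of all names and UUAU in 4.25%. The motifs found in 0 members were UCUC with 12.4% of all names, UUUC with 9.42%, UAUA with 3.82%, GUAC with 3.57% and UGUUC with 2.58%. Motifs were searched on the mature strand alone. UGUUC was searched whole, as the study prints it, and shorter parts of it were not searched. In miR-15b-5p the substitutions G20A and U21C from miR-15a-5p fall inside bases 18 to 21, and it held none of the 7. Neither did miR-16-5p, miR-195a-5p, miR-322-5p and miR-16-1-3p. UAUU is given in the study as part of UUAUU, where it overlaps UUAU. UAUU was found in 4 members, at bases 15 to 18 of miR-16-5p and miR-195a-5p, bases 5 to 8 of miR-16-1-3p and bases 9 to 12 of miR-15b-3p. In the last it overlaps UUAU by 3 bases. It occurs in 4.55% of all names. With UAUU counted as a motif, 6 of the 8 members held at least 1, against 37.9% of all names, and miR-15b-5p and miR-322-5p were the members with none. GUUGUGU was found in 0 members and 0.123% of all names.

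The label of the family names Bcl2, so 3′ UTRs of GENCODE M21 were searched for TGCTGCT, the DNA letters that pair with bases 2 to 8 of the 5p members. The 3′ UTR is the part of an mRNA after its stop codon, where miRNAs mostly bind. The longest 3′ UTR of Bcl2, in Bcl2-201 with 5086 bases, held 1 such match, at its bases 2459 to 2465 (chr1:106540799-106540805, minus strand). An A follows the match, which faces base 1 of the miRNA. The match is printed below with the bases around it, as DNA letters of the mRNA strand, with capitals for TGCTGCT. The shortest annotated 3′ UTR of Bcl2 held 0 matches. Over all 20990 protein-coding genes with a 3′ UTR the match was present in 4260 (20.3%). Of the 956 genes whose longest 3′ UTR is within 20% of the length of that of Bcl2, a comparison chosen after the match was found, 515 (53.9%) had it. A match is a description of letters and not a measured binding site.
Bcl2: taagaaaccctgTGCTGCTatcctgccaa
Ccne1: ttattttgtaagTGCTGCTatgtctatca
Chek1: tggtgaatagagTGCTGCTatgtgacatt
Wee1: gccttgtgaattTGCTGCTattttagttt
The match of Ccne1 lies at chr7:38098024-38098030 on the minus strand, that of Chek1 at chr9:36710291-36710297 on the minus strand, and that of Wee1 at chr7:110142668-110142674 on the plus strand. The last is the second of the 2 matches in Wee1, and the first is not followed by an A. These 3 sites beside that of Bcl2 were picked as examples of TGCTGCTA, the match with an A after it, once their letters were known. Of the 19 matches in the 28 genes searched, 8 are followed by an A and 11 are not. The 8 lie in 8 genes, which also include Ccnd2, Cdk6, Cdc25a and E2f3, and 4.05% of all genes hold TGCTGCTA.

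The counts below are to be read against the 20.3% of all genes with a match in the longest 3′ UTR and the 12.5% with one in the shortest. Of the 5 pro-survival genes of the BCL-2 family, Bcl2 and Bcl2l2, which encodes BCL-W, had a match. Bcl2 was searched because the label of the family names it, so its match is no independent evidence. Bcl2l2 had 4 in 3177 bases, of which 2 overlap each other and 0 are followed by an A. Bcl2l1, which encodes BCL-XL, Mcl1 and Bcl2a1a had 0. Of the 11 pro-apoptotic genes, 0 had a match, and their longest 3′ UTRs were those of Hrk with 5068 bases and of Bcl2l11, which encodes BIM, with 4218. In the shortest 3′ UTRs the pro-survival genes had 0 of 5 and the pro-apoptotic genes 0 of 11. With a match to bases 2 to 7 alone, which 38.6% of all genes hold, the counts were 4 of 5 and 4 of 11, the latter being Hrk, Bmf, Bbc3 and Bad. With an A required after bases 2 to 7, which 8.82% of all genes hold, they were 1 of 5 and 2 of 11. The 1 was Bcl2 and the 2 were Bmf and Bad, so the lists were not set apart by every kind of match. Median lengths were 2353 and 1121 bases, so the lists differ in the sequence searched as well, and no test was made. Of the 10 cell-cycle genes 9 had at least 1 match. Cdk6 had 3, of which 2 overlap each other, Cdc25a, Wee1 and E2f3 had 2 each, and Ccnd1, Ccnd2, Ccnd3, Ccne1 and Chek1 had 1 each. Cdk4 had 0. In the shortest 3′ UTRs 5 of these 10 genes had a match. The median length in this list was 1764.5 bases, against 961 over all genes. Genes of this list were picked as known targets of the family or their relatives, so that the count is no independent evidence. Tlr7 and Tlr8, the receptors of the study, had 0 matches in 3′ UTRs of 407 and 58 bases.

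**Figure D5:**
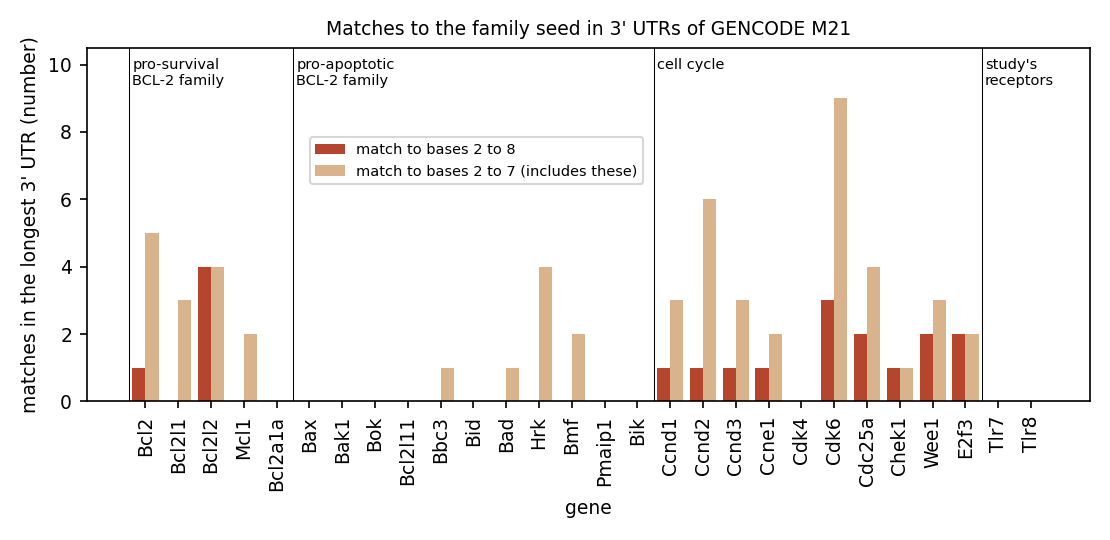
Number of matches to bases 2 to 8 (red) and to bases 2 to 7 (light brown, which include the red) in the longest 3′ UTR (y axis) of each gene of the 4 lists (x axis). Bcl2 and Bcl2l2 are the pro-survival genes with a red bar, the 11 pro-apoptotic genes have none, and 9 of the 10 cell-cycle genes have one.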

How the data were processed

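The authors trimmed reads with Trimmomatic 0.36, aligned them with STAR 2.5.2b and counted them with featureCounts 1.6.2 on miRBase, per the labels, the study's methods and the header of the deposited table. The authors used DESeq2 1.20 for differential expression. The deposited table lists counts in 14 columns named by library codes; these match no sample label, and all 14 were left out, with the planned fits of staurosporine against DMSO. From the deposited table, names, positions and the other annotation were used. The length column equals the summed loci for 1966 of 1966 names. RefSeq (GRCm38.p6) held a sequence for 1675 names (85.2%); 1625 of these could also be read by position from hairpins of GENCODE M21, also on GRCm38, and 1625 were identical. These 1625 form the background. Names outside them were not searched. Host genes are GENCODE M21 genes that span a locus. 3′ UTRs were cut from GENCODE M21 protein-coding transcripts with a complete end, after the stop codon. Matches are exact strings. String functions were tested on simulated sequences. Python 3.11.15 and pandas 2.3.3 were used. Members and lists were chosen with earlier results of these data known. Besides members, the text names other arms of their hairpins, names with the family seed, within 10 kb or with at most 2 differing bases, and 28 genes in 4 lists.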

Additional observations from a re-analysis of the deposited data

How the results depend on the processing

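Of 15 alternatives run on 8 descriptions, 4 changed the value by a factor of more than 1.5 and 11 by less, of which 3 changed a count at all (11 names with bases 2 to 7 of the seed, and 12 and 8 listed genes with an A required after bases 2 to 7 and 2 to 8). Some of the 11 could not have come out otherwise and say nothing about stability. The RefSeq sequences of the members are identical to those read by position, so their base content was bound to be the same. A stricter cut on overlap with the opposite strand cannot change a count of 0. With the seed required in names that end in 5p, 6 names had it against 10, which leaves out names with no arm. With UAUU and GUUGUGU added to the motifs, 6 of the 8 members held 1 against 3 (37.9% of all names against 35.9%). With a match to bases 2 to 7, 17 of the 28 listed genes had one (60.7%, and 38.6% of all genes) against 11 (39.3%, and 20.3%), and with the shortest 3′ UTR of each gene 5 had one (17.9%, and 12.5%). Sequences are fixed, so depth does not limit these counts, but nothing is known from them about amounts. The planned count fits, with other normalizations, filters, left-out replicates and DESeq2, were not run. No paired analysis was possible because the library codes over the counts are tied to no replicate number.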

Other observations

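Some values belong to neighbours of the family and not to its members. miR-16-2-3p, the other arm of the chromosome 3 copy of miR-16, held 2 of the 7 motifs, UUAU at bases 8 to 11 and UUGU at bases 11 to 14, which overlap by 1 base, and had an AU content of 68.2%, above 96.6% of all names. miR-503-3p, 319 bases from miR-322-5p, held UUGU at bases 6 to 9 and UUUC at bases 9 to 12. miR-322-3p had a GU content of 28.6%, above 2.6% of all names, whereas the other arm of its hairpin, miR-322-5p, had 54.5%. In the chromosome X group, miR-450a-5p has 2 loci with 1 mature sequence, as miR-16-5p has, but both lie on the same strand within the 10 kb.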
